A study of Mus musculus with 9 samples.

Results

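The transcripts of sarcoplasmic calcium release and uptake were followed in mouse tibialis anterior muscle: Atp2a1, Atp2a2, Casq1, Casq2, Pvalb, Sln, Ryr1, Cacna1s, Jph1 and Jsrp1. These 10 genes were taken by name, for their roles in fast and slow muscle calcium handling, from the 14300 protein-coding genes listed in both deposited tables, and all 10 were found. RNA was sequenced from male mice of the C57BL/6J strain, 4 weeks after they were treated, in 3 groups with 3 libraries each. The groups were control mice (headed sham in the tables), mice whose testes had been removed (ORX), and ORX mice given dihydrotestosterone (ORX+DHT), the more potent androgen made from testosterone. All 3 groups shared strain, sex and muscle, and each replicate is labelled a biological one. The age of the mice and the dose and route of the androgen are not given in the sources used here. Whole muscle was sequenced, so fewer cells of a type and less RNA per cell cannot be told apart.

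In a muscle fibre, an action potential spreads along the transverse tubules, where the voltage sensor Cav1.1 (Cacna1s) pulls open the ryanodine receptor (Ryr1) of the facing sarcoplasmic reticulum. Calcium that was held in the reticulum by calsequestrin (Casq1, Casq2) then floods the fibre and starts contraction. Relaxation follows as SERCA pumps (Atp2a1 in fast, Atp2a2 in slow fibres) return calcium to the store, helped in fast fibres by the soluble buffer parvalbumin (Pvalb). Tibialis anterior is a fast muscle of the lower leg.

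Fast isoforms far exceeded their slow partners in every library, with 447 to 659 Atp2a1 reads for each Atp2a2 read and 35.1 to 70.1 Casq1 reads for each Casq2 read. With the authors' scaling or its joint form, no block and all libraries of a comparison in the fit, 0 of the 9 genes that could be tested passed limma's test in any of the 3 comparisons. Of all genes, 0.0579% passed between ORX and control, 4.08% between ORX+DHT and ORX, and 0.0349% between ORX+DHT and control. With ORX+DHT against ORX, all 9 had small negative log2 fold changes, from -0.28 for Pvalb to -0.05 for Jph1, and each 95% interval lay within 1.5-fold either way. With ORX against control the intervals were wider, and the values ran from -0.48 for Pvalb to 0.35 for Cacna1s. Control replicate 1 stood apart from the other controls, by up to 1.37 on the log2 scale (Cacna1s, lower there). Of the 54 tested genes of a wider calcium list, 3 were called in ORX+DHT against ORX, a share near the 4.08% of all genes. Mrln, for a peptide that inhibits SERCA, and Bin1, for a membrane-shaping protein of the transverse tubule, rose, and Ppp3ca, for the catalytic subunit of the calcium-activated phosphatase calcineurin, fell. With all 9 libraries in 1 fit, Ppp3ca alone of the 3 was called.

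Levels are normalised counts, that is, read counts divided by a scaling factor for each library, with all 9 libraries put on 1 joint scale. Libraries held 1340209 to 1682235 reads over the listed genes. The 10 genes together took 4.79% to 5.72% of those reads, and Atp2a1 alone took 2.17% to 3.76%. Skeletal muscle fibre markers were present in every library (6 of 6 genes, summed level 160470 to 217824 normalised counts). Of the 6 heart markers, 4 were matched, and their summed level was 8.74 to 20.3, with Tnni3 and Ryr2 at or near 0. Fast fibre markers (8 of 8 matched) summed to 204584 to 239874 in control libraries. Their sums were 169193 to 180741 in ORX libraries and 179706 to 193403 in ORX+DHT libraries, so the control sums lay above both other groups. Myh4 was the largest part of each sum. By single marker, 0 of 7 tested were called in either comparison against control. In each, 6 of the 7 were negative (51.1% of all genes for ORX, 50.7% for ORX+DHT). Actn3 was positive for ORX, at 0.06, and Myh1 for ORX+DHT, at 0.27. Slow fibre markers (8 of 8 matched) summed to 264 to 548, 344 to 366 and 249 to 358 in the same order. Most of each of these sums was Myl3 and Myoz2. Satellite cell markers (2 of 2 matched) summed to 6.24 to 13.2 over the 9 libraries. The part of these marker levels in the results for the 10 genes was not tested.

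Control replicate 1 stood apart from controls 2 and 3, and did so by transcript length. Its log2 difference from the mean of the other controls was 1.07 for Pvalb (transcript of 977 bases), 0.81 for Jsrp1 (1108 bases) and 0.61 for Casq1 (1847 bases). The longest transcripts went the other way, with -1.37 for Cacna1s (6251 bases) and -1.14 for Ryr1 (15358 bases). Between these lay Casq2 at 0.04 (2556 bases), Jph1 at -0.41 (4809 bases), Atp2a1 at -0.45 (3477 bases) and Atp2a2 at -0.61 (4486 bases). Spearman's rho between length and this difference was -0.933 over the 9 genes, all read from 1 library, and -0.62 over 8620 genes. Over all genes the median difference ran from 0.88 under 1 kb to -0.49 between 6 and 8 kb. Short calcium genes were thus high and long ones low in control 1, and the ratio of Pvalb to Cacna1s reads was 36.8 there against 5.10 to 8.24 in the other 8 libraries. Over the same 9 genes rho was 0.917 in ORX+DHT 1, -0.783 in ORX+DHT 3, 0.55 in ORX 1 and -0.5 in ORX 3, and over all genes 0.1, -0.139, 0.262 and -0.274. Values against control are also given without control 1.

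**Figure D1:**
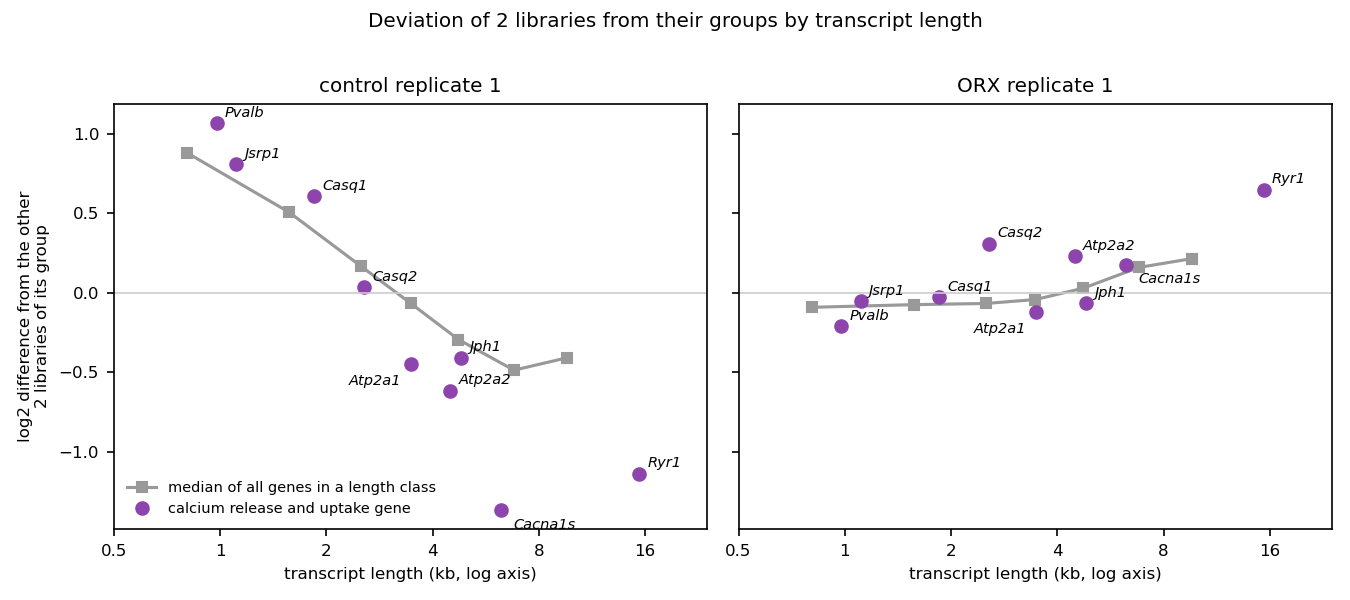
Log2 difference of 1 library from the mean of the other 2 of its group (vertical axis) against transcript length in kb (log axis), for control 1 (left) and ORX 1 (right). Purple points are 9 calcium genes and grey squares the median of all genes in a length class. In control 1 the points fall from 1.07 for Pvalb to -1.37 for Cacna1s, while in ORX 1 most lie near 0 and Ryr1 is high.

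The promoter windows of 3 genes are printed as examples: the calsequestrin pair, whose fast and slow isoforms stood far apart in level, and Mrln, the gene of the calcium lists with the largest called change. Each runs 5′ to 3′ from 250 bases before to 50 bases after the start given by RefSeq (GRCm38.p6). Of the 10 genes, 6 had such a window, with 7 windows in all since Pvalb has 2. Capitals in the Casq1 window (chr1:172219846-172220145, minus strand) and the Casq2 window (chr3:102086165-102086464, plus strand) mark the E-box CANNTG, the letters read by myogenic factors. Capitals in the Mrln window (chr10:70204414-70204713, plus strand) mark AGAACA or its reverse complement TGTTCT, each one arm of the androgen and glucocorticoid receptor element.
Casq1: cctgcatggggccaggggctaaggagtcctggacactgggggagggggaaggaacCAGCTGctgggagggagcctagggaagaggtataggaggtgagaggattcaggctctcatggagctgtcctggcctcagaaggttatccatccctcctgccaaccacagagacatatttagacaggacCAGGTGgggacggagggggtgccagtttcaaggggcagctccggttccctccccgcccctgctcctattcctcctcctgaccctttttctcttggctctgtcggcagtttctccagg
Casq2: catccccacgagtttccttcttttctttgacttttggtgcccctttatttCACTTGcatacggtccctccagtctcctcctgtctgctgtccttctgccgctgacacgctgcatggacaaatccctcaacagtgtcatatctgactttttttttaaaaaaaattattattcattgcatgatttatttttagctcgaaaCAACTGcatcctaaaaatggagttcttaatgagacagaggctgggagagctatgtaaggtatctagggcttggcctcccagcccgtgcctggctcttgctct
Mrln: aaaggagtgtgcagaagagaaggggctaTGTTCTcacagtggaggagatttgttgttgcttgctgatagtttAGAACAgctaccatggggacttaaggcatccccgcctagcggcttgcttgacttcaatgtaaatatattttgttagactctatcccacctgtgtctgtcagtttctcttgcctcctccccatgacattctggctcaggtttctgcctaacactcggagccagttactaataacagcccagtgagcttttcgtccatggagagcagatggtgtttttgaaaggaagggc
The Casq1 window held CAGCTG 195 bases and CAGGTG 67 bases before the start (positions -195 and -67), and the Casq2 window held CACTTG at -200 and CAACTG at -52. The Mrln window held TGTTCT at -222 and AGAACA at -178. Both strands were searched. CANNTG was found in 5 of the 7 windows of the 10 genes and in 72.3% of all 32851 windows of this length. The single arm AGAACA was found in 1 of the 7, the second Pvalb window, and in 19% of all windows. The full element, AGAACA and TGTTCT with 3 bases between them, contains the arm and was in 0 of the 7 and in 3 of all 32851 windows (0.00913%). Neither motif was tested for a link with the levels.

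Transcript lengths are those of the longest protein-coding transcript of each gene in GENCODE M21. Per kb of transcript, Pvalb and the fast isoforms of pump and calsequestrin led the order of the 10 genes. Pvalb stood at 14366 ± 5974 normalised counts per kb and Atp2a1 at 13632 ± 1322 (SD over n = 9 libraries), and their ranges overlapped, with Pvalb above Atp2a1 in 2 of 9 libraries. Casq1 followed at 2754 ± 615, clear of its neighbours. Ryr1 at 508 ± 137 and Jsrp1 at 466 ± 117 overlapped, with Ryr1 the higher in 6 of 9 libraries. Cacna1s at 275 ± 65.1 lay below Jsrp1 in all 9 libraries and above Jph1, at 175 ± 15.8, in 8 of 9. The slow isoforms came after them, with Casq2 at 41.3 ± 8.04 and Atp2a2 at 19.4 ± 3.28, and Sln came last at 1.46 ± 0.898. On the opposite strand other annotated genes covered 21.9% of the exon bases of Atp2a1 (Rabep2), 20% of Cacna1s, 8% of Casq1, 4.19% of Ryr1 and smaller shares of Atp2a2 and Jph1. The library kit keeps the strand, but whether counting used it is not given in the sources used here, so these levels are uncertain. The fast fibre marker Tnnc2, which shares 74% of its exon bases with Ube2c on the other strand, was listed at only 1.11 to 4.91 normalised counts.

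**Figure D2:**
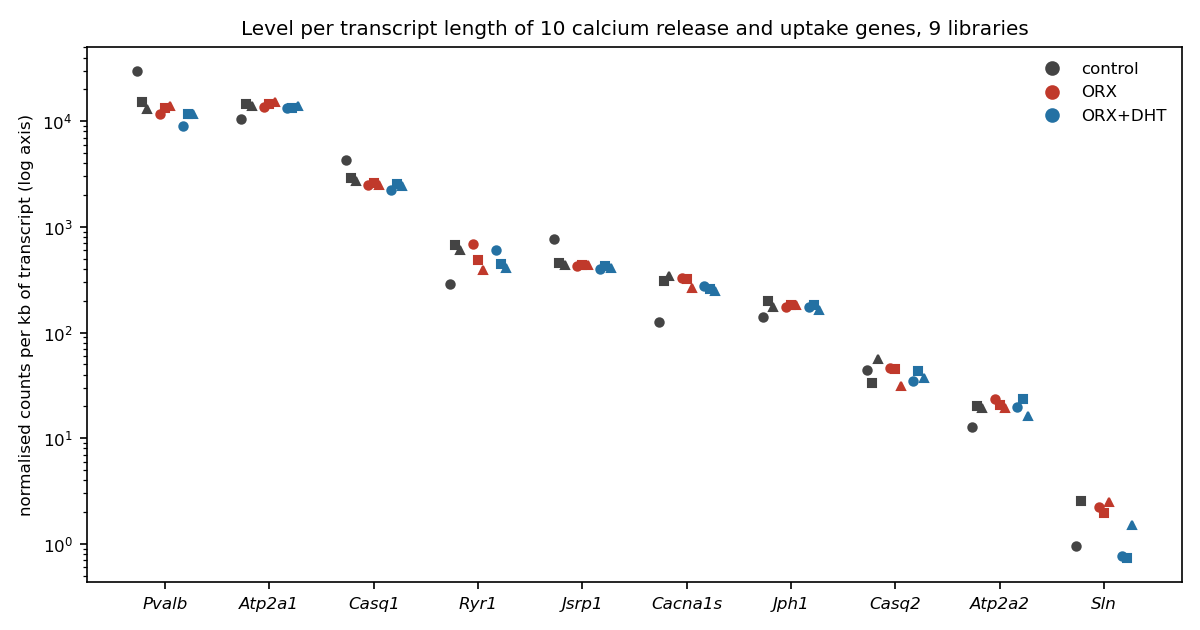
Normalised counts per kb of transcript (log axis) for the 10 genes, ordered by mean. Each point is 1 library, with circles, squares and triangles for replicates 1, 2 and 3, and the Sln value of 0 in control 3 cannot be drawn on a log axis. Pvalb and Atp2a1 lie highest, from 9049.5 to 29603, while Atp2a2 and Casq2 lie between 12.8 and 56.3.

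The release side begins with Cacna1s (ENSMUSG00000026407, chr1:136052750-136119822, plus strand of GRCm38), the voltage sensor of the transverse tubule. Its normalised counts were 787, 1933 and 2127 in controls 1, 2 and 3, 2053, 2006 and 1643 in ORX, and 1734, 1625 and 1537 in ORX+DHT. Control 1 was by far the lowest library, and the ORX and ORX+DHT groups overlapped in 1 library each. The log2 fold change was 0.35 in ORX against control (SE 0.30, limma adjusted p 0.811) and -0.21 in ORX+DHT against ORX (SE 0.09, 95% interval -0.40 to -0.02, limma adjusted p 0.266). Without control 1 the first value was -0.10 (limma adjusted p 0.789), the opposite direction.

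Ryr1 (ENSMUSG00000030592, chr7:29003344-29125179, minus strand), the release channel itself, varied more between replicates than any other of the 9 tested genes in ORX and ORX+DHT. Its levels were 4449, 10329 and 9271 in control, 10457, 7384 and 6017 in ORX, and 9191, 6806 and 6259.6 in ORX+DHT. All 3 groups overlapped, and replicate 1 was the highest of both treated groups and the lowest control. The log2 fold change was 0.04 in ORX against control (SE 0.30, limma adjusted p 0.981) and -0.08 in ORX+DHT against ORX (SE 0.16, limma adjusted p 0.871). Without control 1 the first value turned to -0.34 (unadjusted p 0.0537, limma adjusted p 0.476). Its SD on the log2 scale was 0.40 in ORX and 0.29 in ORX+DHT, where the median gene had 0.19 and 0.18.

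Jsrp1 (ENSMUSG00000020216, chr10:80808496-80813498, minus strand) encodes a reticulum protein of the junction that binds both Cav1.1 and calsequestrin. It stood at 858, 499.8 and 479.7 in control, at 468, 483 and 487 in ORX, and at 443, 475 and 456 in ORX+DHT. Apart from control 1 the other 8 libraries lay close together, and its log2 fold change was -0.30 in ORX against control (SE 0.20, limma adjusted p 0.768) and -0.03 without control 1. For ORX+DHT against ORX it was -0.07 (SE 0.08, 95% interval -0.24 to 0.10, limma adjusted p 0.78).

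Jph1 (ENSMUSG00000042686, chr1:16964560-17097889, minus strand) encodes junctophilin, which ties the reticulum to the transverse tubule. Its levels were 675, 952 and 844 in control, 837, 875 and 878 in ORX, and 836, 874 and 789 in ORX+DHT. The groups overlapped, and the log2 fold changes were 0.08 in ORX against control (SE 0.15, limma adjusted p 0.919) and -0.05 in ORX+DHT against ORX (SE 0.08, limma adjusted p 0.824). The value against control turned to -0.05 when control 1 was left out (limma adjusted p 0.887).

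On the uptake side, Atp2a1 (ENSMUSG00000030730, chr7:126445858-126463108, minus strand), the fast SERCA pump, was the most abundant of the 10 by reads. It stood at 36261, 50377 and 48557 in control, at 47278, 50447 and 52258 in ORX, and at 46541, 46647 and 48215 in ORX+DHT. Control 1 was the lowest of the 9 libraries and the other 8 spanned a narrow range. The log2 fold change was 0.16 in ORX against control (SE 0.20, limma adjusted p 0.868) and -0.08 in ORX+DHT against ORX (SE 0.09, 95% interval -0.26 to 0.10, limma adjusted p 0.728). The first of these was 0.014 without control 1 (limma adjusted p 0.978).

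Atp2a2 (ENSMUSG00000029467, chr5:122453513-122502225, minus strand), the pump of slow fibres and heart, stood at 57.4, 89.6 and 87.4 in control, at 105, 92.1 and 86.9 in ORX, and at 88.2, 104 and 73.1 in ORX+DHT. All 3 groups overlapped, with a log2 fold change of 0.30 in ORX against control (SE 0.20, limma adjusted p 0.77) and -0.11 in ORX+DHT against ORX (SE 0.14, limma adjusted p 0.808). Leaving out control 1 gave 0.09 for ORX against control (limma adjusted p 0.873). Per kb, Atp2a2 made up 0.117% to 0.173% of the pair. The log2 ratio of Atp2a2 to Atp2a1 differed by 0.13 between ORX and control (exact two-sided permutation test, p = 0.4), by -0.02 between ORX+DHT and ORX (exact p = 1) and by 0.11 between ORX+DHT and control (exact p = 0.5). With 3 libraries against 3 the smallest p this test can give is 0.1, so it cannot reach 0.05.

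Sln (ENSMUSG00000042045, chr9:53850164-53854560, plus strand) encodes sarcolipin, a small inhibitor of SERCA. Its reads were 1, 3 and 0 in control, 3, 3 and 4 in ORX, and 1, 1 and 2 in ORX+DHT, or 18 over all 9 libraries. The group sums were 4, 10 and 4 reads, with exact Poisson 95% intervals of 1.09 to 10.2, 4.8 to 18.4 and 1.09 to 10.2, which cover counting error only. The intervals overlapped, the 0 in control 3 allows up to 3 reads of 1502088, and the gene lay below the minimum mean of 10 and was not tested. With no filter on the mean, Sln entered the limma fits and 0 of the 10 genes were called in each comparison, with 0, 2 and 0 at an unadjusted p under 0.05 (the 2 in ORX+DHT against ORX).

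In the store, Casq1 (ENSMUSG00000007122, chr1:172209894-172219868, minus strand), the fast calsequestrin whose promoter window is printed above, stood at 7965, 5400.0 and 5060.15 in control. It stood at 4603, 4768 and 4622 in ORX and at 4106, 4731 and 4532 in ORX+DHT. All 3 controls lay above all 6 other libraries. The log2 fold change was -0.37 in ORX against control (SE 0.18, 95% interval -0.77 to 0.04, limma adjusted p 0.695) and -0.07 in ORX+DHT against ORX (SE 0.08, limma adjusted p 0.758). For ORX+DHT against control it was -0.44 (SE 0.18, unadjusted p 0.0376, limma adjusted p 0.736). Without control 1 the values against control were -0.16 for ORX and -0.23 for ORX+DHT (limma adjusted p 0.494 and 0.313). The groups again did not overlap, which leaving out the highest control could not have changed.

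Casq2 (ENSMUSG00000027861, chr3:102086415-102146514, plus strand), the isoform of heart and slow fibres, stood at 114, 85.1 and 144 in control, at 119, 115 and 79.4 in ORX, and at 88.2, 111 and 93.9 in ORX+DHT. The groups overlapped, with log2 fold changes of -0.12 in ORX against control (SE 0.22, limma adjusted p 0.919), -0.11 without control 1, and -0.08 in ORX+DHT against ORX (SE 0.15, limma adjusted p 0.875). Per kb, Casq2 made up 1.02% to 2.02% of the pair. The log2 ratio of Casq2 to Casq1 differed by 0.25 between ORX and control (exact two-sided permutation p = 0.6). Between ORX+DHT and ORX it differed by -0.01, and between ORX+DHT and control by 0.24 (exact p = 1 and 0.5).

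Pvalb (ENSMUSG00000005716, chr15:78191114-78206400, minus strand) encodes the cytosolic calcium buffer of fast fibres. With all libraries of a comparison in the fit, its log2 fold change was the farthest from 0 of the 9 in each of the 3 comparisons. Pvalb stood at 28922, 14861 and 12827 in control, at 11533, 13106 and 13529 in ORX, and at 8841, 11316 and 11379.8 in ORX+DHT. Every ORX+DHT library lay below every ORX library and every control, while ORX and control overlapped. The log2 fold change in ORX+DHT against ORX was -0.28 (SE 0.10, 95% interval -0.49 to -0.07, unadjusted p 0.0112), and it did not pass after adjustment (limma adjusted p 0.154). In ORX against control it was -0.48 (SE 0.27, limma adjusted p 0.724), and -0.12 without control 1. Against control, ORX+DHT gave -0.76 (SE 0.27, unadjusted p 0.0173, limma adjusted p 0.736), and -0.40 without control 1 (limma adjusted p 0.123). Without control 1, Ryr1 lay farther from 0 than Pvalb for ORX (-0.34) and for ORX+DHT (-0.42), as did Casq1 for ORX (-0.16).

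**Figure D3:**
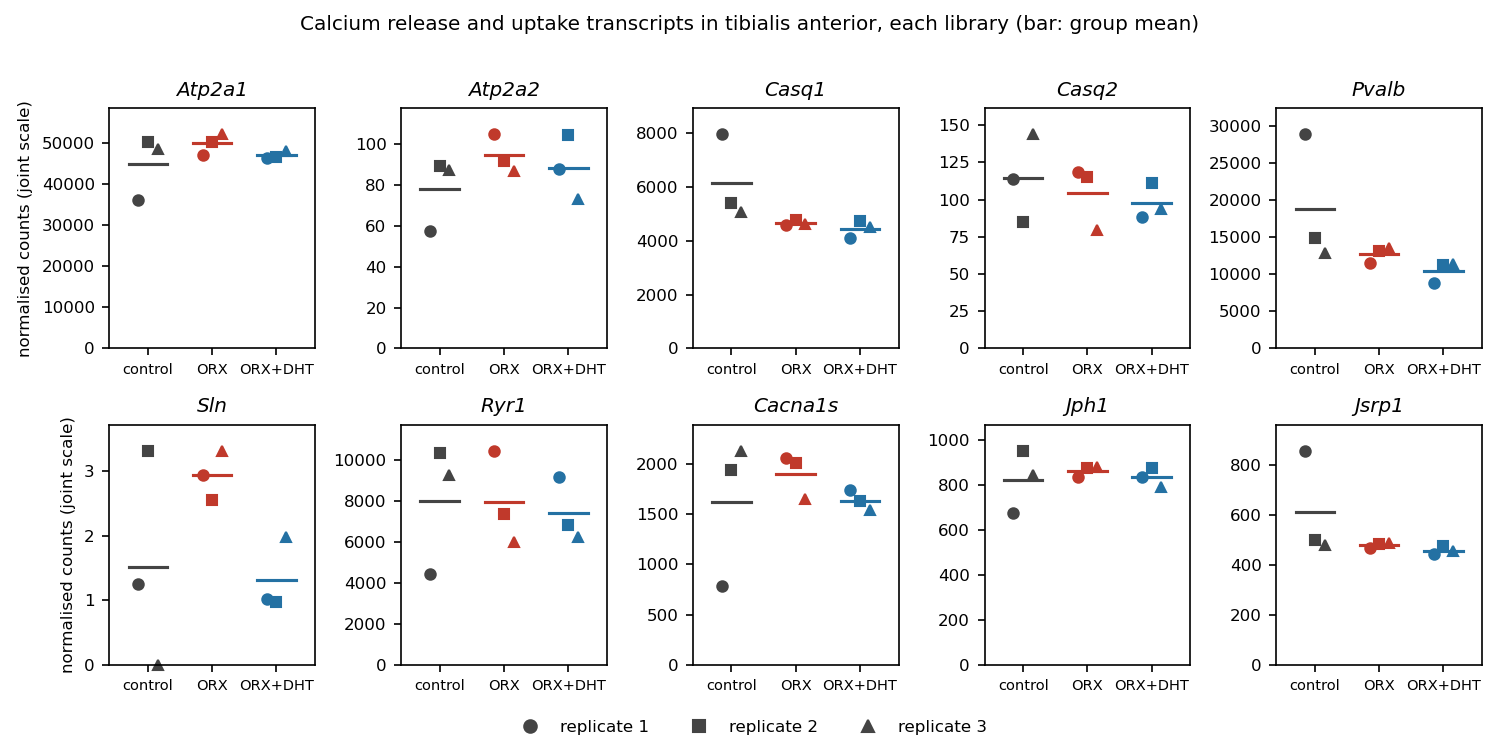
Normalised counts on the joint scale (vertical axis, from 0) of each of the 10 genes in control, ORX and ORX+DHT muscle. Symbols are replicates 1 to 3 and bars are group means. Control 1 is the highest library for Casq1, Pvalb and Jsrp1 and the lowest for Atp2a1, Atp2a2, Ryr1, Cacna1s and Jph1.

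Counted over the set, orchiectomy came first. In ORX against control 0 of 9 tested genes were called by limma, where 0.0579% of 8631 genes were. At an unadjusted p under 0.05 it was 0 of 9 (7.21% of all genes), and edgeR and DESeq2 on the recovered reads also called 0. Groups were free of overlap for 1 of 9, Casq1, which was lower (14.3% of all genes in either direction, 8.06% lower). The interval lay within 1.5-fold either way for 1 of 9, Jph1 (28.7% of all genes), and within 2-fold for 7 of 9 (80.6%). For the other 8 the interval reached beyond 1.5-fold in at least 1 direction. Of the 9 values 5 were positive and 4 negative, with a median of 0.04 against -0.01 over all genes. After a correction for transcript length, with control 1 kept, 5 of 9 were negative. Without control 1, where 0.592% of genes were called, 0 of 9 were called, 7 were negative, and 8 intervals lay within 1.5-fold (43.4% of all genes). Casq1 was then the 1 gene whose groups were free of overlap (27.2% of all genes), which leaving out its highest control could not have changed.

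Given DHT after orchiectomy, 0 of 9 were called in ORX+DHT against ORX by limma, where 4.08% of 8770 genes were, and edgeR and DESeq2 also called 0. At an unadjusted p under 0.05 there were 2 of 9, Pvalb and Cacna1s (14.3% of all genes). Groups were free of overlap for 1 of 9, Pvalb, which was lower (19.5% in either direction, 9.13% lower). All 9 log2 fold changes were negative (49.2% of all genes), with a median of -0.08 against 0.01 over all genes. All 9 were also negative under TMM scaling and quantile normalisation. Leaving out 1 library, values reached 0.13 for Ryr1, 0.025 for Atp2a2 and 0.024 for Casq2. With all libraries in the fit, all 9 intervals lay within 1.5-fold either way (48.8% of all genes). After quantile normalisation Atp2a1 and Pvalb were called, at -0.28 and -0.41 (limma adjusted p 0.000584 and 0.00513). That method sets each value by the gene's rank in its library. By level, Atp2a1 lay above the fibre marker Acta1 in every ORX library and below it in every ORX+DHT library. The part of this change of order in the Atp2a1 call was not tested. Without ORX replicate 3 Cacna1s was called, at -0.32 (limma adjusted p 0.0349). As shares of reads, the 10 genes together took 5.55%, 5.63% and 5.72% in ORX and 4.91%, 4.94% and 4.93% in ORX+DHT libraries. Every ORX+DHT library was below every ORX library in that share, which Atp2a1 dominates with 45.3% to 65.7% of the reads of the set. Controls 1, 2 and 3 took 4.79%, 5.59% and 5.32%, a range that takes in the ORX+DHT shares. How often shares of reads separate over all genes was not tested. A share also depends on the reads of all other genes, and on scaled counts Atp2a1 was at -0.08 in ORX+DHT against ORX. In the same comparison the fast fibre markers had 5 of 7 tested values positive, with 2 called higher and 0 lower. The slow fibre markers had 1 of 4 tested values positive, with 1 called lower, Myl3 at -0.75 (limma adjusted p 0.0166). Myh7, Myl2, Tnni1 and Tnnc1 lay below the minimum mean of 10 and were not tested. Of the 6 skeletal muscle fibre markers 3 were called higher (Acta1, Des and Mb). The 4 fibroblast markers summed to 2784 to 3739 in the ORX group against 1671 to 2365 with DHT, without overlap. Most of that sum was Col1a1 and Col3a1. Col1a1 fell by 1.18 on the log2 scale (limma adjusted p 2.89e-06). Col3a1, Dcn and Pdgfra were not called, at -0.46, -0.05 and 0.06 (limma adjusted p 0.0597, 0.933 and 0.966). The part of these markers in the values of the calcium genes was not tested.

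With ORX+DHT set against control, after joint rescaling, 0 of 9 were called by limma, where 0.0349% of 8595 genes were, and edgeR and DESeq2 called 0. At an unadjusted p under 0.05 there were 2 of 9, Pvalb and Casq1 (6.48% of all genes). No overlap was seen for 3 of 9, Casq1, Pvalb and Jsrp1, all lower (14% of all genes in either direction, 7.12% lower). These 3 have the shortest transcripts of the 9, and control 1 was the highest control for each, so leaving it out could not bring overlap. Intervals lay within 1.5-fold for 2 of 9 (28.5% of all genes). The log2 fold changes of the rest lay between -0.20 for Casq2 and 0.19 for Atp2a2. Without control 1, where 0.768% of genes were called, 0 of 9 were called. All 9 values were then negative, with a median of -0.19 against -0.0049 over all genes. Groups did not overlap for 6 of 9 (26.1% of all genes), among them Casq1, Pvalb and Jsrp1. The lowest limma adjusted p was then 0.109, for Cacna1s at -0.31, and Ryr1 stood at -0.42 (limma adjusted p 0.196). After a correction for transcript length, with control 1 kept, 6 of 9 values were negative. Cacna1s was then at 0.05 and Ryr1 at -0.08 (limma adjusted p 0.97 and 0.913). ORX and ORX+DHT were each set against the same controls, and ORX enters 2 of the 3 comparisons, so the 3 sets of values are not independent.

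**Figure D4:**
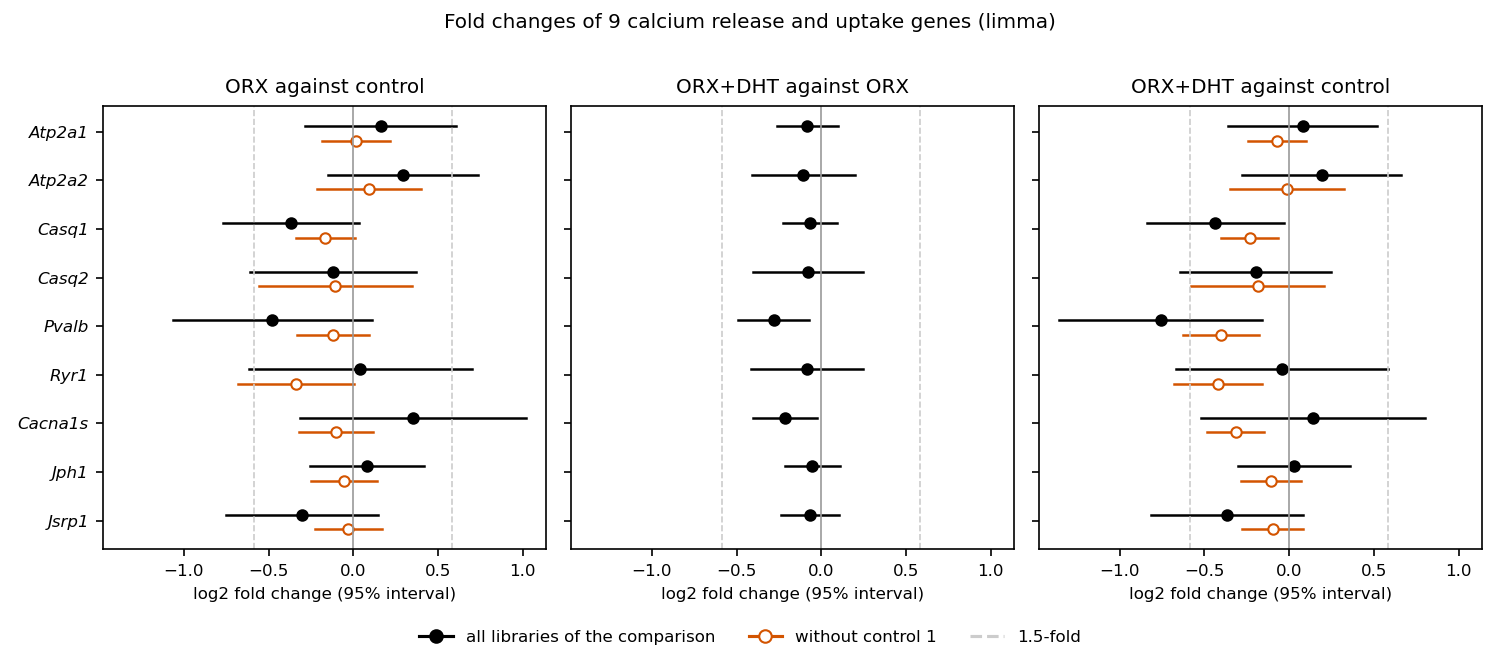
Log2 fold changes with 95% intervals from limma for the 9 tested genes in the 3 comparisons. Black points use all libraries of the comparison, orange open points leave out control 1, and dashed lines mark 1.5-fold. The middle panel has the narrowest intervals, all within the dashed lines and all points left of 0.

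A wider list of 59 calcium genes was read in the same fits, 57 of them in both tables. In ORX against control 0 of 54 tested were called by limma, edgeR or DESeq2, with 5 at an unadjusted p under 0.05 (7.21% of all genes), a median log2 fold change of -0.09 and 41 values negative (51.1% of all genes). In the DHT comparison with ORX, 3 of 54 were called, 2 higher and 1 lower (2.38% and 1.7% of all genes), with 15 at an unadjusted p under 0.05 (14.3% of all genes) and a median of 0.03. Against control, ORX+DHT gave 0 of 53 called by limma, edgeR or DESeq2, with 5 at an unadjusted p under 0.05 (6.48% of all genes), a median of -0.08 and 33 values negative (50.7% of all genes). By role, 1 of 26 tested release genes, 1 of 5 uptake and storage genes, 0 of 8 genes of surface entry and efflux, 0 of 5 genes of mitochondrial uptake and 1 of 10 genes of calcium-dependent signalling were called in ORX+DHT against ORX. The release genes were 15 positive and 11 negative there, from -0.39 to 0.48.

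Mrln (ENSMUSG00000019933, chr10:70204664-70219711, plus strand), whose promoter window is printed above, encodes myoregulin, a micropeptide of the reticulum membrane that lowers SERCA activity. It stood at 116, 56.4 and 46.7 in control, at 42.2, 38.4 and 38.9 in ORX, and at 70.9, 67.7 and 75.1 in ORX+DHT. Every ORX+DHT library lay above every ORX library. It rose by 0.82 in ORX+DHT against ORX (SE 0.15, limma adjusted p 0.00253). In ORX against control it was -0.75 (SE 0.29, limma adjusted p 0.675) and -0.36 without control 1, and its listed transcript is short, at 443 bases.

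Bin1 (ENSMUSG00000024381) encodes amphiphysin 2, which shapes the transverse tubule membrane. It stood at 1520, 1117 and 1004 in control, at 889, 979 and 846 in ORX, and at 1158, 1169.8 and 1204 in ORX+DHT. The ORX libraries were the lowest 3 of the 9. It rose by 0.38 in ORX+DHT against ORX (SE 0.08, limma adjusted p 0.00731), while ORX against control gave -0.40 (SE 0.17, limma adjusted p 0.675) and -0.23 without control 1. With all 9 libraries in 1 fit, neither Mrln nor Bin1 was called (limma adjusted p 0.216 and 0.362).

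Ppp3ca (ENSMUSG00000028161, chr3:136670124-136937727, plus strand) stood at 591, 421 and 445 in control, at 515, 556 and 599 in ORX, and at 358, 354 and 354 in ORX+DHT. The ORX+DHT libraries were the lowest 3 of the 9 and nearly equal. It fell by 0.64 in ORX+DHT against ORX (log2 scale, SE 0.09, limma adjusted p 0.000108) and was called in all 18 alternative fits of that comparison. Against control, ORX+DHT gave -0.43 (SE 0.15, unadjusted p 0.016, limma adjusted p 0.736) and ORX gave 0.21 (limma adjusted p 0.793). Without control 1 these values were -0.29 and 0.36 (limma adjusted p 0.245 and 0.161).

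**Figure D5:**
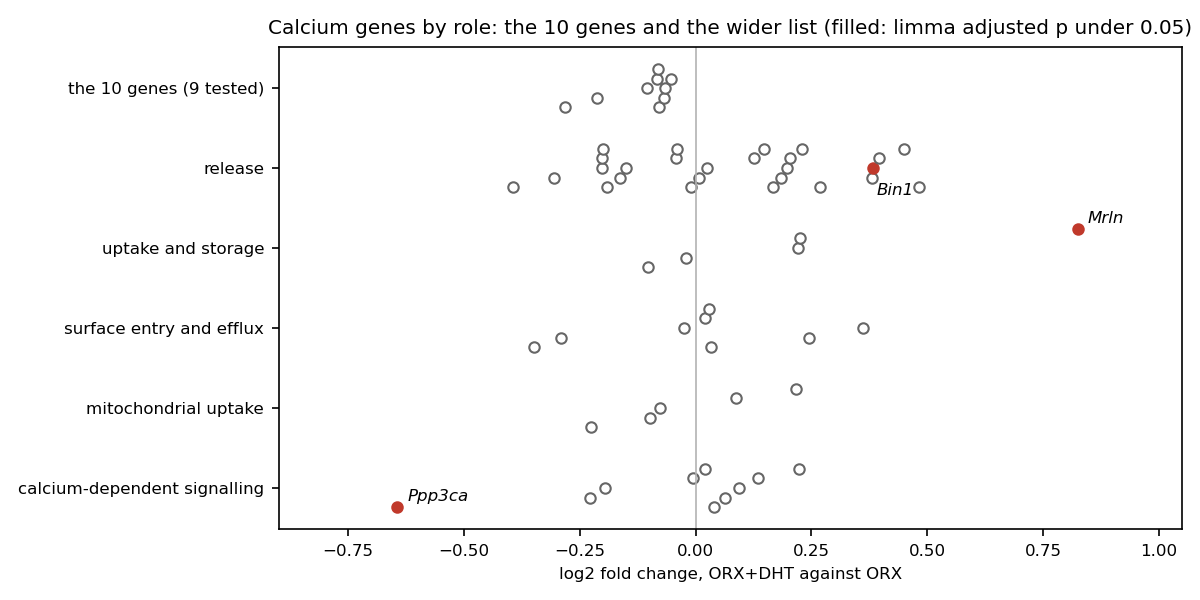
Log2 fold changes in ORX+DHT against ORX (horizontal axis) of the 10 genes (9 tested) and of the wider calcium list by role. Each circle is 1 gene, spread vertically only for legibility, and filled circles have a limma adjusted p under 0.05. All 9 values of the first row are below 0, and Mrln at 0.82 and Ppp3ca at -0.64 lie farthest from 0.

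Genes whose levels ran most like those of the 10 were read from Pearson's r over the 9 libraries among 3795 genes, as a description. For Casq1 they were Asph (r = 0.99), for a gene that also makes the junctional protein junctin, Pvalb (0.976) and Gpd1 (0.97), for an enzyme of glycerol phosphate metabolism. For Pvalb they were Trdn (0.984), for triadin, which links calsequestrin to the release channel, Anp32a (0.979) and Casq1 (0.976). Without control 1, r was 0.936 for Casq1 with Asph, 0.875 for Casq1 with Pvalb and 0.931 for Pvalb with Trdn. Ryr1 ran close to Ccdc88c (0.976) and Huwe1 (0.969), whose transcripts are long, at 7542 and 14579 bases. Cacna1s ran closest to Itsn1 (0.984), Patl1 (0.976) and Ptprs (0.975). The first-ranked gene was R3hdm2 for Atp2a1 (0.994), Sort1 for Atp2a2 (0.956), Gapvd1 for Casq2 (0.874), Rgma for Jph1 (0.973) and Eif2s2 for Jsrp1 (0.995). All of these values share the 9 libraries, and control 1 is an extreme point in most of them. With control 1 left out, the first-ranked gene was another one for each of the 9.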

How the data were processed

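RNA from tibialis anterior muscle was made into 9 directional libraries after polyA selection, per the labels' protocols. The authors deposited 2 tables of normalised counts of protein-coding genes, a signal in which each library's counts are divided by its own scaling factor. One table holds control and ORX libraries, the other ORX and ORX+DHT libraries. The submitters' processing notes name Trim Galore 0.6.7, HISAT2 2.2.1, featureCounts 2.0.1, DESeq2 1.36.0 and the build GRCm38, with no roles given. Columns headed sham were taken as control, the only group without orchiectomy, and 0 columns were left unmapped. In every column 100% of values were whole multiples of 1 step (tolerance 0.001 reads), which gave back the read counts, 1340209 to 1682235 per library; for control 3 the step was close to 1.

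Since the tables were scaled separately, ORX was tested against control, and ORX+DHT against ORX, inside the table that holds both. For ORX+DHT against control, and for printed levels, the 14300 shared genes of all 9 libraries were rescaled together by median-of-ratios factors. limma 3.58.1 in R 4.3.3 (lmFit, eBayes with trend) was fitted on log2(value + 1) to genes with a mean of at least 10, with Benjamini-Hochberg adjustment over all genes tested and calls made where the adjusted p was under 0.05. The log2(value + 1) scale of the fold changes understates those of low genes. Ratios of isoforms were compared with exact permutation tests, and 95% intervals on reads cover counting error only. Alternatives were other pseudocounts and filters, TMM and quantile normalisation, 1 fit to all 9 libraries, a block for the replicate number, leaving out single libraries, and edgeR 4.0.16 and DESeq2 1.42.0 on the recovered reads. A correction for transcript length (GENCODE M21; 11 genes had no length) was chosen after seeing the data. The fits were also run on simulated data, with changes larger than those of the 9 tested genes and no length effect. That run therefore cannot tell how the fits treat small changes or a library such as control 1.

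The 10 genes were described whatever their result. Of the wider list of 59 calcium genes, those called in a comparison were named and the rest counted. The 3 genes most like each of the 10 were taken by r among genes with a mean of at least 50; 1 of them is not reported here. The members, lists and rules were chosen with earlier results of these data known. Tnnc2 and the markers Acta1, Des, Mb, Col1a1, Col3a1, Dcn, Pdgfra, Myh4, Myh1 and Actn3 were named after their values were seen. So were the slow fibre markers Myl3, Myoz2, Myh7, Myl2, Tnni1 and Tnnc1.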

Additional observations from a re-analysis of the deposited data

How the results depend on the processing

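None of the 10 genes was called against control under any of the 18 alternatives of either comparison, and the wider list gave 0 calls there. In ORX+DHT against ORX, quantile normalisation called 2 of the 10 genes, and leaving out 1 library 0 to 1; the wider list gave 5 calls with a pseudocount of 10, 6 after quantile normalisation, 1 with all 9 libraries in 1 fit, 7 with the length correction and 3 to 5 leaving out 1 library. Over all genes, calls in ORX against control (5) were 16 with no filter, 23 with all 9 libraries, 28 with DESeq2, 30 with the length correction and 1 to 51 leaving out 1 library. For ORX+DHT against ORX (358) they were 123 with all 9 libraries, 221 with DESeq2 and 223 to 350 leaving out 1 library. For ORX+DHT against control (3) they were 21 with no filter, 6 after quantile normalisation, 11 with all 9 libraries, 13 with DESeq2, 21 with the length correction and 0 to 66 leaving out 1 library. The highest counts against control, 51 and 66, were those without control 1. The replicate numbers do not pair the samples by the labels, and over the 3 comparisons same-numbered libraries deviated together with r of -0.165 to 0.151. In ORX+DHT against ORX the same-numbered r were 0.0627, 0.0611 and 0.151, all above those of differently numbered libraries, at -0.0872 to 0.0248. Whether those samples were paired was not tested. With the replicate block, calls were 571 genes in ORX+DHT against ORX, 2 of the 10 genes (Cacna1s and Pvalb, limma adjusted p 0.0347 and 0.000371) and 10 of the wider list. With the length correction and the replicate block they were 15, 565 and 14 genes in the 3 comparisons, 2 of the 10 genes and 10 of the wider list. The ratio of Atp2a2 to Atp2a1 turned to -0.24, 0.17 and -0.074 after quantile normalisation (ORX against control, ORX+DHT against ORX, ORX+DHT against control). Quantile normalisation sets values by rank, and Atp2a1 ranked above Acta1 in the ORX libraries only. For the same ratio, leaving out 1 library gave 0.017 to 0.23, -0.15 to 0.12 and -0.020 to 0.26. The ratio of Casq2 to Casq1 in ORX+DHT against ORX turned to 0.13 after quantile normalisation and ran from -0.19 to 0.10 leaving out 1 library. Other changes of sign came in values that were not called. In ORX against control, Ryr1 was -0.00027 with DESeq2 and Jph1 -0.0071 with the length correction, with or without the block. Against control, ORX+DHT gave Ryr1 0.13 and Bin1 0.059 after quantile normalisation, with Jph1 -0.074 and Bin1 0.017 with the length correction, with or without the block, and Mrln -0.0060 with edgeR and -0.023 with DESeq2. Leaving out 1 library, ORX against control ran from -0.31 to 0.064 for Casq2, -0.34 to 0.27 for Ryr1, -0.10 to 0.61 for Cacna1s and -0.054 to 0.19 for Jph1. ORX+DHT against ORX ran from -0.23 to 0.025 for Atp2a2, -0.26 to 0.024 for Casq2 and -0.27 to 0.13 for Ryr1. ORX+DHT against control ran from -0.070 to 0.17 for Atp2a1, -0.013 to 0.32 for Atp2a2, -0.42 to 0.19 for Ryr1, -0.31 to 0.40 for Cacna1s, -0.11 to 0.14 for Jph1, -0.15 to 0.15 for Bin1 and -0.18 to 0.46 for Mrln. The cause of these changes was not tested. Depth limits Sln, with 18 reads in all.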
